A study of Mus musculus with 2 samples.

Results

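The genes described here are Trem2, the Fc gamma receptors Fcgr1, Fcgr3, Fcgr4 and Fcgr2b, the signalling adaptors Tyrobp and Fcer1g, and the kinase Syk. They were chosen by gene symbol, and all 8 were found among the 31053 genes of the deposited tables. The study profiled single cells of mouse spinal cord with the 10x Genomics 3′ version 3 kit. Both libraries came from injured cord taken 5 days after injury, 1 treated with an HDAC3 inhibitor (HDAC3i) and 1 with vehicle. The compound, its dose, the number of animals and the strain are not given in the labels, and no uninjured cord was analysed here. With 1 library per treatment, differences between the libraries had no replicate check and no test was made.

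Trem2 is a lipid- and lipoprotein-sensing receptor of microglia and tissue macrophages. It has no signalling tail of its own and passes its signal through Tyrobp (DAP12), a membrane adaptor with an immunoreceptor tyrosine-based activation motif. The activating Fc gamma receptors, which bind IgG in immune complexes, use Fcer1g, the common gamma chain, in the same way. Phosphorylated adaptors recruit the kinase Syk, and Fcgr2b opposes this signal through an inhibitory motif in its own tail. In injured cord these receptors are known from the clearance of myelin debris and of antibody-coated material.

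The genes lie on 5 chromosomes of the mm10 assembly (GENCODE M21 annotation). Fcgr2b (chr1:170958617-170976547, minus strand), Fcgr4 (chr1:171018920-171029761, plus strand), Fcgr3 (chr1:171051174-171064935, minus strand) and Fcer1g (chr1:171229572-171234365, minus strand) share a stretch of chromosome 1. Fcgr1 lies at chr3:96282909-96293969 on the minus strand and Trem2 at chr17:48346401-48354147 on the plus strand. Tyrobp lies at chr7:30413760-30417585 and Syk at chr13:52583173-52648792, both on the plus strand. The 3′ ends that the kit reads were distinct. Among stretches of 60 bases in the last 500 bases of the coding transcripts, 13 of 1447 in Fcgr2b also occurred in Fcgr3, and none of the other 7 genes shared a stretch with another gene. Fcgr2b overlaps the gene model Gm38204 on the opposite strand, and the sources used here do not say whether counting used strand.

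The RefSeq promoters (GRCm38.p6) were searched for the letters GAGGAA or their reverse complement TTCCTC. These letters are a form of the site bound by PU.1 (Spi1), a transcription factor of the myeloid lineage. Shorter or other forms of the site were not searched for. Of the 9 promoters that the table holds for 7 of the members, 6 held a match in their 300 bases, against 28.3% of all 32851 promoters of that length. The 6 belong to Trem2, Fcgr1, Fcgr3 (both of its promoters, which overlap and hold the same match), Fcgr4 and Syk (1 of its 2). Counted by gene, 5 of the 7 members had a match. The 120 bases before the start are shown for the 4 receptors with a match and for 2 members without one, with the match in capitals.
Trem2 (chr17:48346281-48346400, plus strand): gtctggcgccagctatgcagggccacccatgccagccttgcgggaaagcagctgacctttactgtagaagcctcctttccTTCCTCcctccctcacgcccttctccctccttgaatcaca
Fcgr1 (chr3:96293970-96294089, minus strand): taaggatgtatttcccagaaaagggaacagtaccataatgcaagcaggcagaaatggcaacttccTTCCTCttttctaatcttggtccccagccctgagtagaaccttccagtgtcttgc
Fcgr3 (chr1:171059404-171059523, minus strand): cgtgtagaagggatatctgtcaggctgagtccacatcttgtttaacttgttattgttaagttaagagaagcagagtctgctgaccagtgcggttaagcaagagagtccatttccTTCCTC
Fcgr4 (chr1:171018806-171018925, plus strand): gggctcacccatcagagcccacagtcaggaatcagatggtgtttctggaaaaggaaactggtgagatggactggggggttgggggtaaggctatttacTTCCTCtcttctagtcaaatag
Fcer1g (chr1:171234350-171234469, minus strand): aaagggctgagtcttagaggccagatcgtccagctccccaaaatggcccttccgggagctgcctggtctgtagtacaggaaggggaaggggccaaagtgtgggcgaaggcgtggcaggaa
Fcgr2b (chr1:170976072-170976191, minus strand): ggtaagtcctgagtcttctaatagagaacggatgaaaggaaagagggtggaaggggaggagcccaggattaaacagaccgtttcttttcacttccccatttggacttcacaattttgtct
The match began 55 bases before the start in Fcgr1, 40 in Trem2, 22 in Fcgr4 and 6 in Fcgr3. A match within the last 60 bases before the start occurred in 6.08% of all promoters. The stretches shown for Fcgr3 and Fcgr2b lie wholly inside the GENCODE gene models of these genes. Those of Fcgr4 and Fcer1g reach into theirs with their last bases. In Trem2, Fcgr1 and Fcgr3 the match sat inside the longer stretch TTCCTTCCTC, which 0.493% of all promoters held on either strand. Both of these last features were looked for after the matches had been seen, and a match of letters is not a measured binding site.

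After filtering, 2954 cells of the HDAC3i library and 2164 of the vehicle library remained, with medians of 9701.5 and 10245 unique molecular identifiers (UMIs, counts of single RNA molecules) per cell. The 8 genes took 0.615% and 0.604% of all UMIs. Cells fell into 27 clusters. Of these, 25 were named in 14 classes from marker genes that exclude the 8 members, and names end in "-like" for that reason. Levels are UMIs per 1000000 UMIs of the class (CPM). The microglia markers summed to 7849 CPM in HDAC3i and 8734 CPM in vehicle microglia-like cells, and to 1510 and 1520 CPM among monocyte/macrophage-like cells. The libraries shared 10 barcodes, of which 5 were kept in each. Values below are given for HDAC3i first and vehicle second, intervals are exact 95% intervals, and they cover counting error only.

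Trem2 was carried by microglia-like and monocyte/macrophage-like cells at like levels in their summed counts, at a lower level by border-associated macrophage-like cells, and hardly by others. In monocyte/macrophage-like cells (582 and 301 cells) it stood at 2417 and 2317 CPM, and in microglia-like cells (456 and 483 cells) at 2214 and 2500 CPM. The order of these 2 classes turned between the libraries. The comparison depends on how clusters are weighted. With the clusters of a class weighted alike, the log2 ratio of microglia-like over monocyte/macrophage-like cells went from -0.13 and 0.11 to 1.37 and 1.61. Border-associated macrophage-like cells (113 and 49 cells), which carry Mrc1 and Pf4, held 644 and 649 CPM, below both in each library. Levels are given for the 12 classes that held 20 or more cells in both libraries, and the other 9 held at most 31.9 CPM.

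Neutrophil-like cells (167 and 201 cells) held 15.7 and 17.9 CPM of Trem2. To compare shares of cells at equal depth, each cell was thinned to 2000 UMIs and shallower cells were left out, 22 and 5 of the neutrophil-like cells. At that depth 4.14% and 4.59% of neutrophil-like cells had a Trem2 UMI (7.19% and 12.4% unthinned), against 3.45% and 3.59% of endothelial-like cells (12.4% and 14.7% unthinned), in which the gene is not known to act. The intervals of the 2 classes overlapped in both libraries, and the part of free RNA in these shares was not tested. Microglia-like cells had a Trem2 UMI in 96.8% and 96.3% of thinned cells, monocyte/macrophage-like cells in 89.3% and 84.4%, and border-associated macrophage-like cells in 40.9% and 47.9%.

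**Figure D1:**
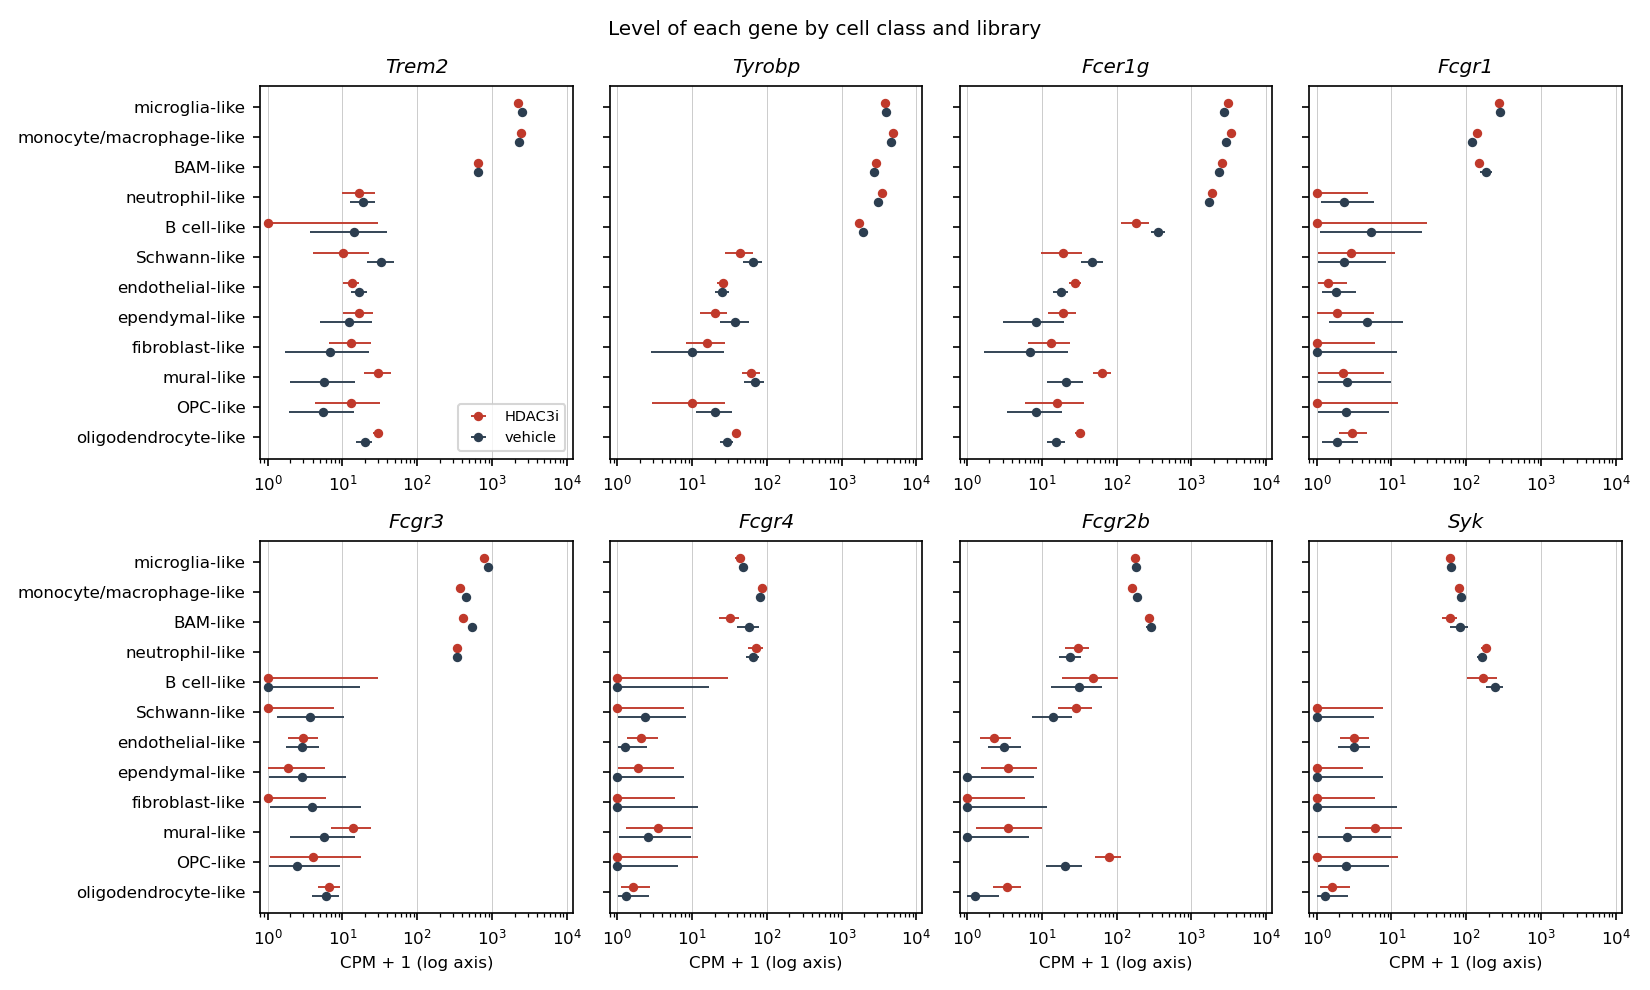
Level of each gene, as CPM + 1 on a log axis, in 12 cell classes of the HDAC3i (red) and vehicle (dark) libraries. Points are class sums and lines exact 95% Poisson intervals. Trem2 and Fcgr1 are high in 3 macrophage classes, whereas Tyrobp, Fcer1g, Fcgr3 and Fcgr4 are also high in neutrophil-like cells. BAM, border-associated macrophage. OPC, oligodendrocyte progenitor.

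Within the monocyte/macrophage-like class, Trem2 separated the lesion macrophages from the monocytes. The cluster led by Spp1, Gpnmb and Lyz2 (525 and 251 cells) held 2509 and 2519 CPM. The cluster led by Plac8, Chil3 and Ly6c2, genes of classical monocytes, held 179 and 193 CPM (28 and 42 cells). The remaining cluster was also led by Plac8, with Ear2, Itgal and Napsa among its leading genes. It held 83.4 and 25.9 CPM, from 18 and 2 UMIs in 29 and 8 cells. Trem2 was among the 10 leading genes of the first cluster, so its height there is a description of that cluster. Per Trem2 UMI there were 1.95 and 1.85 Tyrobp UMIs in the first cluster and 19.7 and 17.4 in the second.

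Among microglia-like cells, the cluster led by Spp1, with Igf1 and Apoc1 (81 and 95 cells), held more Trem2 than the cluster with Ccl4, Il1a and Il1b (375 and 388 cells). The values were 2655 and 3251 CPM in the first and 2124 and 2327 CPM in the second. The levels did not overlap between the clusters in either library. Trem2 is again among the 10 leading genes of the Spp1 cluster. The median depth differed too, at 4236 UMIs per cell in the Spp1 cluster and 11814 in the other, and its part in the difference was not tested.

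The adaptor Tyrobp was the most abundant of the 8 genes in each myeloid class. A UMI counts an RNA molecule once from its 3′ end, whatever its length, so levels of different genes are set side by side without scaling by length. Tyrobp stood at 4848 and 4545 CPM in monocyte/macrophage-like, 3758 and 3862 in microglia-like, 3431 and 3064 in neutrophil-like and 2834 and 2685 in border-associated macrophage-like cells. This order held in both libraries and the ranges of the 2 libraries did not overlap between neighbouring classes. With clusters weighted alike, the log2 ratio of microglia-like over monocyte/macrophage-like cells turned from -0.37 and -0.23 to 0.031 and 0.17. Every thinned myeloid cell of these 4 classes, in both libraries, had a UMI of Tyrobp or of Fcer1g, against 9.36% and 7.52% of endothelial-like cells.

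Fcer1g, the gamma chain, followed with 3357 and 2940 CPM in monocyte/macrophage-like, 3076 and 2763 in microglia-like, 2532 and 2333 in border-associated macrophage-like and 1905 and 1713 in neutrophil-like cells. The ranges of the first 2 classes overlapped. Tyrobp and Fcer1g were not in a fixed proportion. There were 1.80 and 1.79 Tyrobp UMIs per Fcer1g UMI in neutrophil-like cells and 1.12 and 1.15 in border-associated macrophage-like cells. The Ear2 and Napsa cluster had fewer Tyrobp than Fcer1g UMIs, 0.946 and 0.902 to 1, with intervals that held 1 in both libraries.

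The 2 neutrophil-like clusters differed in several members. The cluster led by Ngp and Camp, granule genes of immature neutrophils, held 2614 and 2452 CPM of Tyrobp, and the cluster with Cxcr2 and Il1b, genes of mature neutrophils, held 6774 and 6292 CPM. Fcgr3 rose from 267 and 289 to 624 and 610 CPM between the same clusters and Syk from 141 and 122 to 357 and 361 CPM. Fcer1g changed least, from 1847 and 1721 to 2144 and 1671 CPM, and in the vehicle library it was not higher. These are shares of all UMIs, and the cells of the Cxcr2 cluster were shallower, with a median of 2988 against 8152 UMIs. Whether more RNA of these genes or less of others set the levels cannot be told apart.

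**Figure D2:**
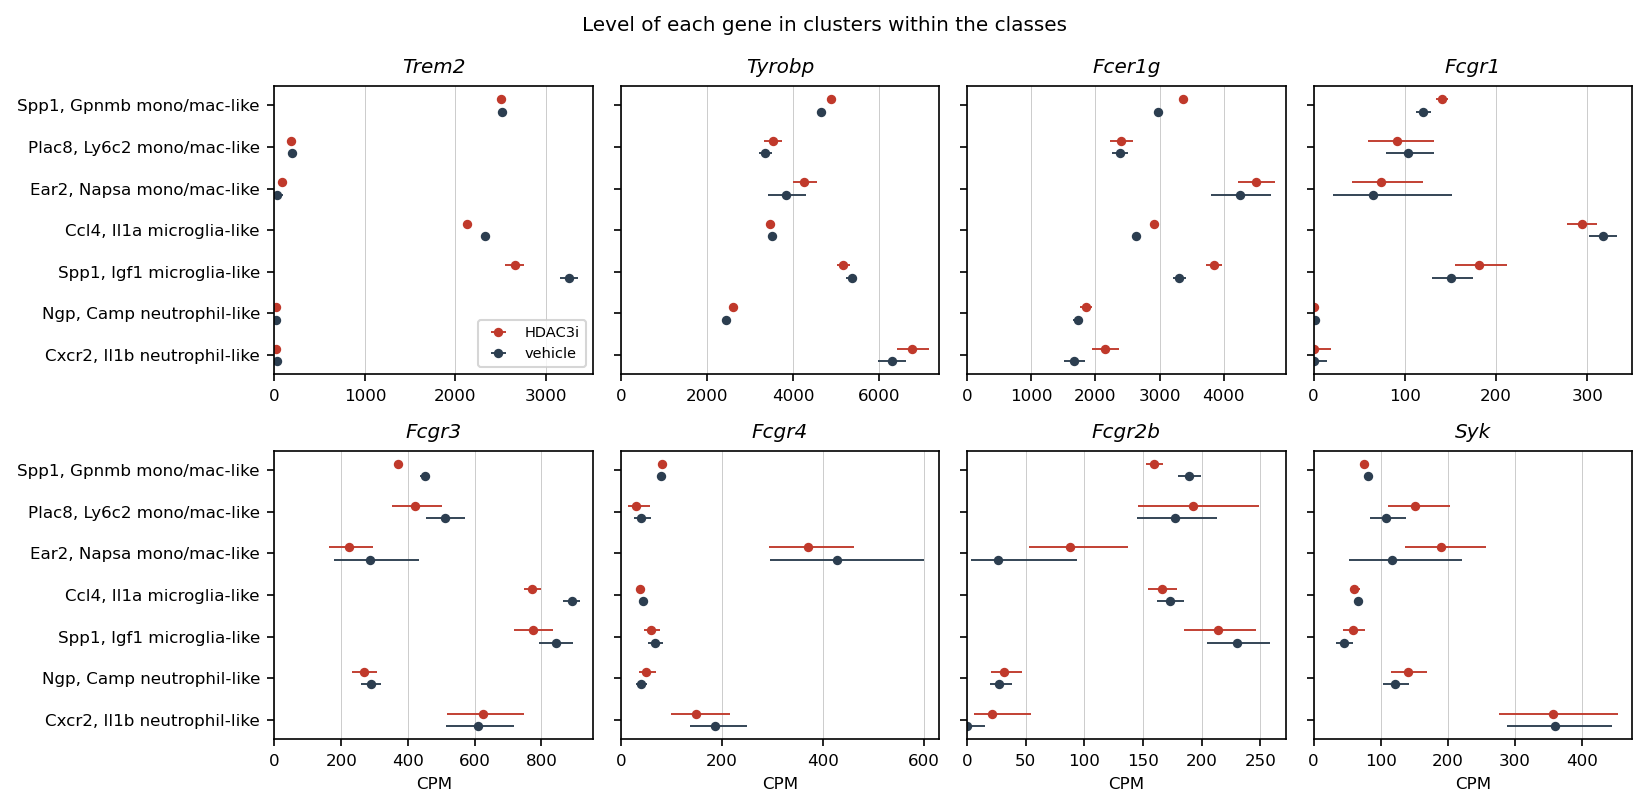
Level of each gene in CPM in 3 monocyte/macrophage-like, 2 microglia-like and 2 neutrophil-like clusters, named by leading genes, in the HDAC3i (red) and vehicle (dark) libraries. Lines are exact 95% Poisson intervals. Trem2 falls from about 2500 CPM in the Spp1 and Gpnmb cluster to under 200 CPM in both monocyte clusters, and Fcgr4 peaks in the Ear2 and Napsa cluster at 371 and 428 CPM.

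Tyrobp and Fcer1g were also found in lymphoid clusters, with most of their UMIs in few cells. The B cell-like cluster held 1727 and 1926 CPM of Tyrobp, with a UMI in 15 of 23 and 19 of 39 cells. Of its 62 cells in both libraries, 10 had a UMI of Siglech and none of Cd79a or Cd79b, and these 10 held 455 of the 660 Tyrobp UMIs and 65 of the 106 Fcer1g UMIs. The 47 cells with Cd79a or Cd79b, subunits of the B cell receptor, and no Siglech held 34 Tyrobp and 4 Fcer1g UMIs. The remaining 5 cells, which all had Siglech UMIs beside Cd79a or Cd79b, held 171 and 37. Siglech is a receptor of microglia and plasmacytoid dendritic cells that itself signals through Tyrobp, and no marker list for such cells had been set, so these 10 cells are named by that gene alone.

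The T/NK-like cluster (51 and 14 cells) showed the same kind of split. The 11 cells with Ncr1, Klrb1c or Klre1, receptors of natural killer cells, and no Cd3 gene held 159 of 210 Tyrobp UMIs and 159 of 195 Fcer1g UMIs, and all 11 had both. The 38 cells with a Cd3 gene and none of the killer cell receptors held 3 and 4, and the remaining 16 cells, with both kinds of gene or neither, held 48 and 32. Fcgr3, the Fc receptor known from natural killer cells, had no UMI in the cluster, which for the killer cell receptor group allows up to 54.6 CPM in 10 HDAC3i cells and 704 CPM in 1 vehicle cell. Both splits were made after the levels had been seen.

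The high-affinity IgG receptor Fcgr1 was highest in microglia-like cells, with 275 and 286 CPM. Border-associated macrophage-like cells held 150 and 185 CPM and monocyte/macrophage-like cells 139 and 118 CPM, in this order in both libraries, although the intervals of the last 2 classes overlapped in HDAC3i. Neutrophil-like cells had no Fcgr1 UMI in 167 HDAC3i cells, which allows up to 3.14 CPM, and 2 UMIs in 201 vehicle cells. Within microglia-like cells the Ccl4 and Il1a cluster held 294 and 317 CPM and the Spp1 and Igf1 cluster 182 and 151 CPM, the reverse of the order for Trem2.

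Fcgr3, a low-affinity activating receptor, made up the largest part of the Fc gamma receptor UMIs in each myeloid class. It stood at 773 and 882 CPM in microglia-like, 403 and 547 in border-associated macrophage-like, 369 and 453 in monocyte/macrophage-like and 337 and 340 CPM in neutrophil-like cells. The ranges of the 2 middle classes overlapped. Its share of the 4 receptors was 77.2% and 79.4% in neutrophil-like, 61.1% and 63.0% in microglia-like, and 49.1% and 54.1% in monocyte/macrophage-like cells.

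Fcgr4, another activating receptor, was the least abundant of the 4 in the 3 macrophage classes and came after Fcgr3 in neutrophil-like cells. Monocyte/macrophage-like cells held 84.7 and 79.9 CPM, neutrophil-like cells 70.2 and 63.5, microglia-like cells 42.3 and 47.6 and border-associated macrophage-like cells 30.7 and 56.4 CPM. The last 2 classes overlapped. The highest cluster was that with Ear2, Itgal and Napsa, genes of patrolling monocytes. It held 371 and 428 CPM from 80 and 33 UMIs, against 30.4 and 40.9 CPM in the Plac8 and Ly6c2 cluster. Plac8 led both clusters, and Hp and the neutrophil marker Retnlg were also among the leading genes of the Ear2 cluster. Its marker score was 3.45 for monocytes and 2.78 for neutrophils, the next list.

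Fcgr2b, the inhibitory receptor, was highest in border-associated macrophage-like cells at 269 and 285 CPM. Microglia-like cells held 174 and 184 CPM and monocyte/macrophage-like cells 159 and 187 CPM, which overlapped. Neutrophil-like cells held 29.3 and 23.2 CPM. Set against it, the 3 activating receptors together had 2.17 and 2.77 UMIs per Fcgr2b UMI in border-associated macrophage-like cells, 3.72 and 3.49 in monocyte/macrophage-like, 6.25 and 6.61 in microglia-like and 13.9 and 17.5 in neutrophil-like cells. This order was the same in both libraries, and intervals of neighbouring classes did not overlap within a library, apart from those of border-associated macrophage-like (2.33 to 3.31) and monocyte/macrophage-like cells (3.29 to 3.70) in the vehicle library.

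Receptors were often found together in a cell. At 2000 UMIs per cell, 51.5% and 54.8% of microglia-like cells had UMIs of at least 2 of the 4 Fc gamma receptor genes. The share was 44 of 110 and 24 of 48 cells in border-associated macrophage-like, 32.3% and 35.6% in monocyte/macrophage-like and 12.4% and 10.2% in neutrophil-like cells, against 0 of 406 and 1 of 306 endothelial-like cells. Fcgr2b stood beside an activating receptor in 26.3% and 29.6% of microglia-like and in 2.07% and 1.53% of neutrophil-like cells. The intervals of the 2 libraries overlapped in each of these classes.

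Fcgr2b was also found in 2 clusters outside the leukocytes. A Schwann-like cluster led by Scn7a, with Sostdc1, held 15 UMIs in 31 HDAC3i cells and 9 in 48 vehicle cells, or 140 and 59.5 CPM, spread over 9 and 6 cells. An oligodendrocyte progenitor-like cluster led by Cspg5 and Ptprz1 held 22 and 12 UMIs (123 and 44.7 CPM), from 3 of 16 and 5 of 20 cells, and 14 of the 22 UMIs came from 1 cell. Fewer UMIs were seen among HDAC3i cells of 3 other clusters. The oligodendrocyte-like cluster of lowest depth held 8 in 2 of 20 cells, beside 89 Tyrobp UMIs. Astrocyte-like cells held 6 in 3 of 30 cells, beside 1 Tyrobp UMI. The progenitor-like cluster led by Gpr17 held 4 in 1 of 10 cells, also beside 1 Tyrobp UMI. The vehicle cells of the Gpr17 cluster held 1 Fcgr2b and 8 Tyrobp UMIs, and vehicle astrocyte-like cells 0 and 3.

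In the Scn7a and Cspg5 clusters Fcgr2b was not accompanied by Tyrobp as it is in myeloid cells. Fcgr2b made up 75.0% (interval 50.9% to 91.3%) and 52.9% (27.8% to 77.0%) of the UMIs of both genes in the Scn7a cluster, and 91.7% (73.0% to 99.0%) and 70.6% (44.0% to 89.7%) in the progenitor-like cluster. In the large endothelial-like cluster, led by Cldn5, which is not known for either gene, it made up 4.60% (1.27% to 11.4%) and 7.89% (2.95% to 16.4%). In the Spp1 and Gpnmb macrophage cluster the share was 3.16% and 3.91%.

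**Figure D3:**
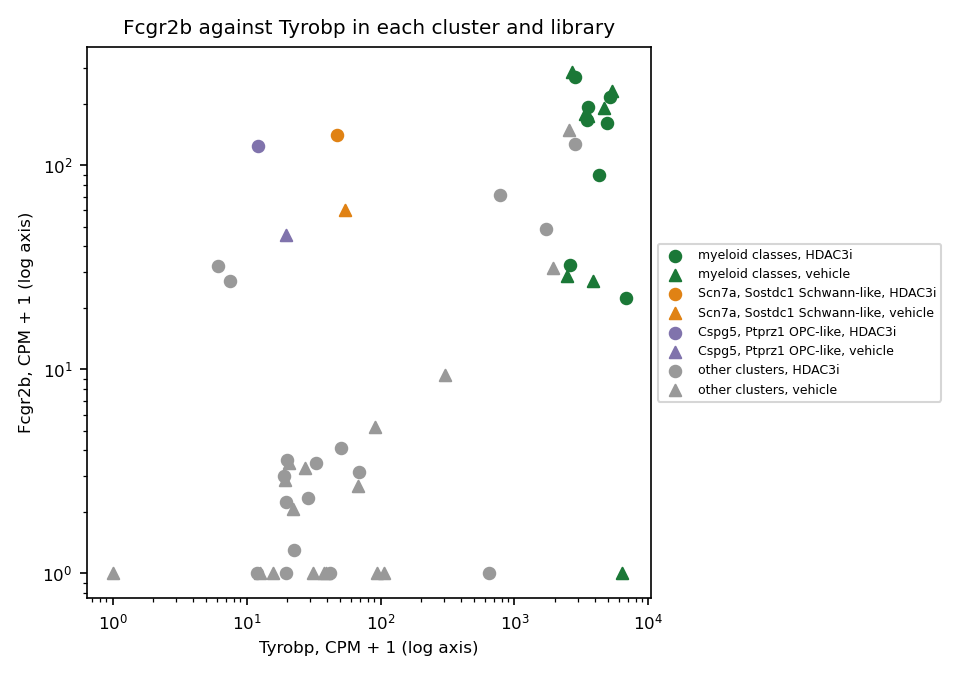
Fcgr2b against Tyrobp, both as CPM + 1 on log axes, with a point for each of 27 clusters in each library (circles HDAC3i, triangles vehicle). Myeloid clusters are at the right with both genes, apart from the vehicle cells of the Cxcr2 neutrophil-like cluster, which had no Fcgr2b UMI. The Scn7a Schwann-like and Cspg5 progenitor-like clusters stand above the other clusters of low Tyrobp, at 44.7 to 140 CPM of Fcgr2b.

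Syk had its highest levels away from the microglia. The B cell-like cluster held 166 and 240 CPM and neutrophil-like cells 183 and 160 CPM, which overlapped. Monocyte/macrophage-like cells followed at 78.5 and 84.0 CPM, border-associated macrophage-like cells at 59.1 and 80.5 and microglia-like cells at 60.6 and 62.5 CPM, without clear order among the 3. In the B cell-like cluster the 47 cells with Cd79a or Cd79b, in which Syk relays the B cell receptor, held 47 of 76 UMIs (228 CPM), and the 10 Siglech cells held 19 (187 CPM). In the T/NK-like cluster Syk had no UMI.

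Genes with a pattern most like each member's were taken by Pearson's r of log2(CPM + 10) over 24 sums (12 classes in each library, which share the library and the class), among 7932 genes, as a description. Trem2 was nearest to C1qb (r = 0.984), Ctsd and C1qc, and Fcgr1 to C3ar1 (0.995), Aif1 and C1qb. Tyrobp was nearest to Cd53 (0.992), Rbm47 and Laptm5, and Fcer1g to Cd84 (0.989), Nckap1l and Spi1. Fcgr3 was nearest to Clec5a (0.982), Tlr2 and Lcp2, Fcgr4 to Tlr13 (0.983), Osm and Igsf6, and Syk to Arhgap30 (0.986), Rac2 and Coro1a. Fcgr2b had no neighbour as close, with Cd68 at 0.907 and Sgpl1 and Pou2f2 behind. Between the members, r was highest for Tyrobp with Fcer1g (0.970), Trem2 with Fcgr1 (0.968) and Fcgr3 with Fcgr4 (0.968), and lowest for Trem2 with Syk (0.453).

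Few genes passed 1.5-fold between the libraries, so the counts of 0 members below do not set the members apart. In microglia-like cells 0 of 8 passed 1.5-fold in either direction, where 0.939% of 7347 genes with at least 100 UMIs were higher by that fold and 1.35% lower. In monocyte/macrophage-like cells it was again 0 of 8, against 1.41% higher and 1.65% lower of 8165 genes. In neutrophil-like cells 0 of the 5 members with 100 UMIs passed, against 7.41% higher and 1.89% lower of 2120 genes, whose median log2 ratio was 0.094. The median log2 ratio of the 8 members was -0.066 in microglia-like cells (all genes -0.016) and 0.073 in monocyte/macrophage-like cells (all genes -0.0055).

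Fcer1g was higher in the HDAC3i library in each of the 4 myeloid classes. The ratio of CPM was 1.11 (1.09 to 1.14) in microglia-like, 1.14 (1.12 to 1.16) in monocyte/macrophage-like, 1.11 (1.05 to 1.18) in neutrophil-like and 1.09 (1.02 to 1.15) in border-associated macrophage-like cells. Within the largest clusters it was 1.11 among the Ccl4 and Il1a microglia and 1.13 among the Spp1 and Gpnmb macrophages. The shifts of Fcer1g are small, and 15.6% of the 1574 genes with at least 1000 UMIs in microglia-like cells had a higher ratio. In monocyte/macrophage-like cells it was 14.7% of 2215.

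Fcgr3 was lower in the HDAC3i library in the 3 macrophage classes. The ratio was 0.877 (0.842 to 0.913) in microglia-like, 0.814 (0.779 to 0.850) in monocyte/macrophage-like and 0.736 (0.641 to 0.846) in border-associated macrophage-like cells, and 0.992 (0.860 to 1.14) in neutrophil-like cells. Among genes with at least 1000 UMIs, 11.3% had a lower ratio in microglia-like and 3.75% in monocyte/macrophage-like cells. The summed level of 11 neutrophil markers also moved in these classes, at 403 CPM in HDAC3i and 1114 CPM in vehicle monocyte/macrophage-like cells and at 135 and 1285 CPM in border-associated macrophage-like cells. In neutrophil-like cells these markers summed to 397800 and 436100 CPM, and Fcgr3 stood at 337 and 340 CPM. Whether the shift of these markers has a part in the Fcgr3 ratios was not tested.

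**Figure D4:**
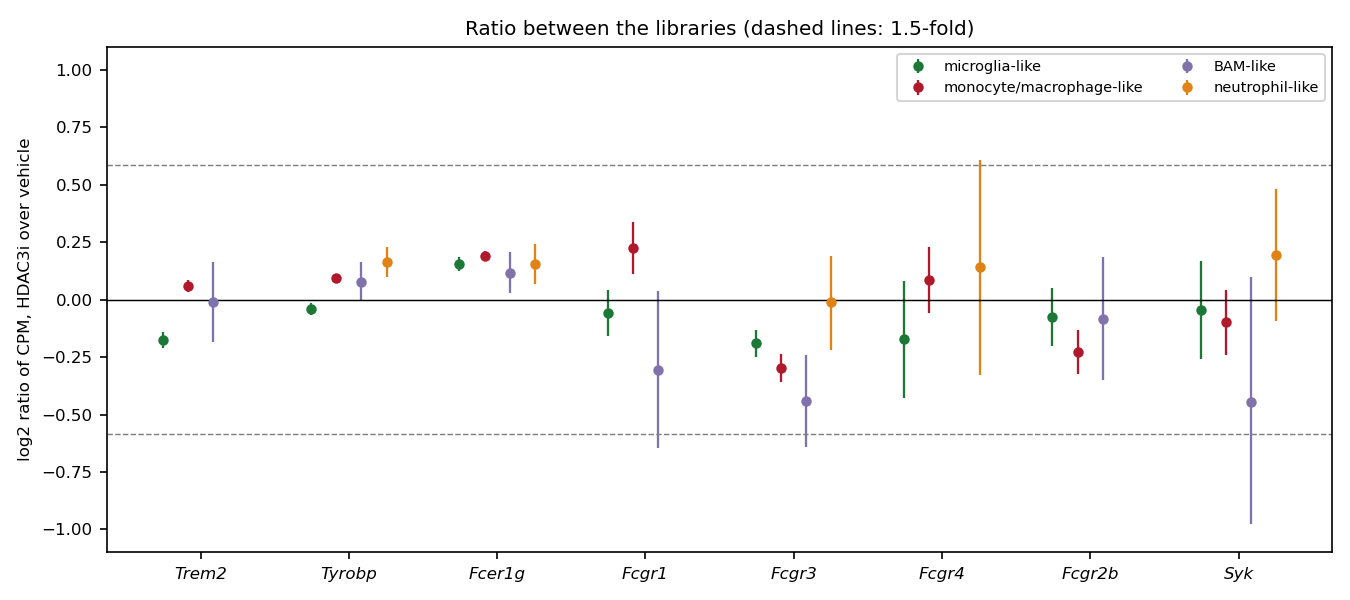
Log2 ratio of CPM, HDAC3i over vehicle, of each gene with at least 100 UMIs in 4 myeloid classes, with exact conditional 95% intervals (counting error only). Dashed lines mark 1.5-fold. Fcer1g is above 0 in all 4 classes and Fcgr3 below 0 in all 4, with an interval that holds 0 in neutrophil-like cells. BAM, border-associated macrophage.

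The adaptor therefore stood higher against its receptors in the HDAC3i library. Per UMI of the 3 activating receptors there were 2.82 and 2.27 Fcer1g UMIs in microglia-like cells, 5.67 and 4.51 in monocyte/macrophage-like cells and 4.34 and 2.96 in border-associated macrophage-like cells. The intervals did not overlap between the libraries in these 3 classes. In neutrophil-like cells the values were 4.68 and 4.23, with intervals that overlapped. This ratio does not depend on the class total, and it was added after the single ratios had been seen.

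**Figure D5:**
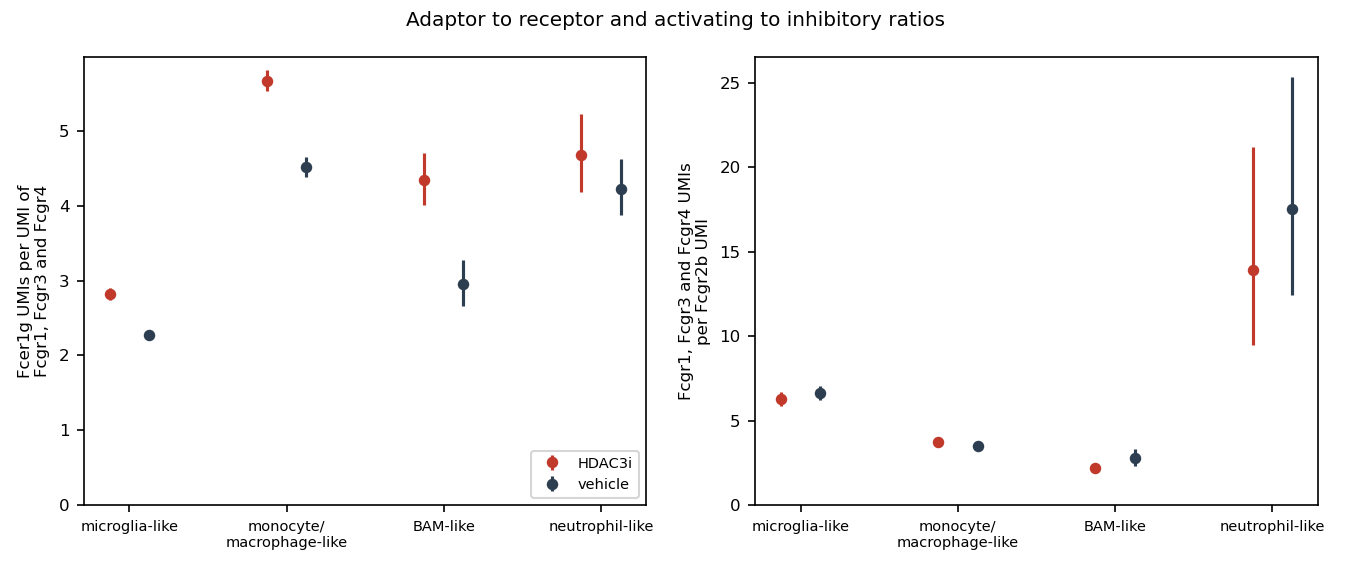
UMI ratios in 4 myeloid classes of the HDAC3i (red) and vehicle (dark) libraries, with exact 95% intervals. Left, Fcer1g per UMI of Fcgr1, Fcgr3 and Fcgr4, higher in HDAC3i by more than the intervals in 3 classes. Right, the same 3 receptors per Fcgr2b UMI, lowest in border-associated macrophage-like (2.17 and 2.77) and highest in neutrophil-like cells (13.9 and 17.5). BAM, border-associated macrophage.

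The other members moved less or not alike. Trem2 had a ratio of 0.886 (0.865 to 0.907) in microglia-like cells, 0.913 and 0.817 in its Ccl4 and Spp1 clusters, and 1.04 (1.02 to 1.06) in monocyte/macrophage-like cells, where the Spp1 and Gpnmb cluster alone gave 0.996 (0.978 to 1.01). That cluster was 90.2% of the class in HDAC3i and 83.4% in vehicle. Tyrobp had 0.973 and 1.07 in the 2 classes and 1.12 in neutrophil-like cells. Within the Ngp and the Cxcr2 neutrophil-like clusters Tyrobp had 1.07 (1.01 to 1.13) and 1.08 (0.999 to 1.16). The Cxcr2 cluster was 45.5% of that class in HDAC3i and 33.3% in vehicle. Fcgr2b had 0.853 (0.798 to 0.912) and Fcgr1 1.17 (1.08 to 1.27) in monocyte/macrophage-like cells. Both signs depend on the processing, since the log2 ratio of Fcgr2b turned from -0.23 to 0.17 with clusters weighted alike and that of Fcgr1 from 0.23 to -0.091 with thinned cells. The intervals of Fcgr4 and Syk held 1 in microglia-like, monocyte/macrophage-like and neutrophil-like cells. In border-associated macrophage-like cells the interval of Syk held 1, whereas Fcgr4 had a ratio of 0.545 (0.337 to 0.883). That Fcgr4 ratio came from 40 and 35 UMIs, fewer than the 100 set for a comparison.

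Among the 3 other named classes with 100 cells in each library, 3 ratios from 100 or more UMIs passed 1.5-fold. All 3 were at low levels and higher in HDAC3i. Fcer1g was 26.9 and 16.9 CPM in endothelial-like cells, a ratio of 1.59 (1.16 to 2.18), where 1.03% of 7463 genes were higher by 1.5-fold and 1.11% lower. In oligodendrocyte-like cells (394 and 209 cells) Fcer1g was 31.9 and 14.6 CPM and Trem2 29.1 and 18.8 CPM, ratios of 2.19 and 1.55, where 1.27% of 6981 genes were higher and 0.831% lower. In these oligodendrocyte-like cells 2 cells held 90 of the 158 HDAC3i and 2 held 26 of the 49 vehicle Fcer1g UMIs, and for Trem2 it was 73 of 144 and 30 of 63. Without the oligodendrocyte-like cluster of lowest depth, which held 20 HDAC3i and 14 vehicle cells, the ratios were 0.972 (0.664 to 1.43) and 0.789 (0.554 to 1.12). In Schwann-like cells no member had 100 UMIs, and 2.51% of 2070 genes were higher and 2.66% lower. From fewer UMIs, the Schwann-like ratio was 0.288 (0.0859 to 0.771) for Trem2 (5 and 24 UMIs). For Fcer1g it was 0.395 (0.175 to 0.816), from 10 and 35 UMIs. The intervals of Tyrobp and of the Fc gamma receptors held 1 there. In smaller or unnamed groups, ratios lay on both sides of 1. The smaller B cell-like class had 182 and 362 CPM of Fcer1g (ratio 0.504, 0.303 to 0.808), and the unnamed cluster led by haemoglobin genes had ratios of 0.356 for Tyrobp and 0.482 for Fcer1g. In mural-like cells the Fcer1g ratio was 3.10 (1.66 to 6.23), from 50 and 13 UMIs.

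Genes around the members were read from lists by role. Of 23 kinases, phospholipases and scaffolds next to Syk with 100 UMIs, 0 passed 1.5-fold in either class. Among all genes, 0.939% were higher by that fold and 1.35% lower in microglia-like cells, and 1.41% and 1.65% in monocyte/macrophage-like cells. The median log2 ratio of the list was -0.06 in microglia-like (all genes -0.016) and -0.08 in monocyte/macrophage-like cells (all genes -0.0055). Lyn, the Src-family kinase that phosphorylates the receptors, stood at 413 and 408 CPM in microglia-like cells, and in monocyte/macrophage-like cells at 174 and 210 CPM. The kinase gene Prkcd had ratios of 0.812 and 0.847 in the 2 classes and the GTPase gene Rac2 0.911 and 0.865.

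Among 22 inhibitory receptors, phosphatases and ubiquitin ligases in microglia-like cells, 1 was higher by the fold, the inhibitory receptor gene Pilra, at 57.8 and 37.2 CPM, and 13 were above 0 on the log2 scale (all genes, 46.6% above 0 and 0.939% higher by the fold). In monocyte/macrophage-like cells 1 of 24 was lower, Clec4a2, at 13.7 and 22.8 CPM, and 7 were above 0 (all genes, 49.0% above 0 and 1.65% lower by the fold). Sirpa, the receptor for Cd47, was at 367 and 391 CPM and 233 and 255 CPM in the 2 classes. Ptprc, the phosphatase CD45, was at 344 and 340 CPM and 188 and 234 CPM.

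Of the other receptors that pair with Tyrobp or Fcer1g, 5 had 100 UMIs in microglia-like and 15 in monocyte/macrophage-like cells. None passed in the first (all genes, 0.939% higher and 1.35% lower by the fold), where Siglech led with 356 and 348 CPM. In the second, 1.41% of all genes were higher by the fold and 1.65% lower. Treml4 was higher there (7.88 and 5.12 CPM, ratio 1.54) and Pira2, a paired immunoglobulin-like receptor, lower (23.2 and 43.4 CPM, ratio 0.534). The C-type lectin genes Clec4d and Clec4n stood at 125 and 112 CPM and at 81.3 and 67.1 CPM there. Among other Fc receptors, Fcrls, a microglial Fc receptor-like gene, stood at 1275 and 1389 CPM in microglia-like cells, and in monocyte/macrophage-like cells at 312 and 266 CPM. Ighm was the 1 immunoglobulin gene with 100 UMIs in either class, at 85.1 and 80.9 CPM in microglia-like cells, and it was lower in monocyte/macrophage-like cells (5.23 and 11.2 CPM, ratio 0.466).

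A list of genes of disease-associated microglia is known from mouse models of Alzheimer's disease. Its genes lay below 0 together in microglia-like cells and on both sides in monocyte/macrophage-like cells. In microglia-like cells 0 of 17 were above 0 on the log2 scale (all genes, 46.6% above 0), with a median of -0.26. Of the 17, 1 was lower by the fold (all genes, 1.35%), Itgax, at 14.4 and 27.8 CPM. The Spp1 and Igf1 cluster was 17.8% of the class in HDAC3i and 19.7% in vehicle, and its part in these values was not tested. Other sums were also lower there in HDAC3i, 878 and 1166 CPM for the 9 lesion macrophage markers (8 and 9 detected, Gpnmb and Lpl being in both lists) and 7849 and 8734 CPM for the 10 microglia markers, and their part was not tested either. Apoe, the lipoprotein that Trem2 binds, stood at 21790 and 29720 CPM, Spp1 at 13640 and 17870 and the lysosomal protease gene Ctsd at 10420 and 12010 CPM. In monocyte/macrophage-like cells 9 of 17 were above 0 (all genes, 49.0%), with a median of 0.06. There Spp1 stood at 38320 and 27330 CPM, Ctsd at 12450 and 11940 and Apoe at 62420 and 71820 CPM, and Itgax was again lower (32.1 and 50.2 CPM, ratio 0.639). Of 6 ligands, partners and sheddases of Trem2 measured in microglia-like cells, 5 were below 0 (all genes, 46.6% above 0). The sheddase gene Adam17 (ratio 0.842) and Lgals3 (0.805) were among these 5, and Adam10 was above (1.06). Some genes stand in both lists.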

How the data were processed

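The deposited files hold UMI counts per barcode and gene, made by the authors with Cell Ranger (software version 3.0.2, per the file headers). The submitters' processing notes name mm10, Cell Ranger and Seurat. Barcodes were dropped below 500 genes, below 1000 UMIs or above 15% of UMIs from mitochondria (448 of 3423 and 353 of 2523), and 21 and 6 doublets called by Scrublet (scanpy 1.11.5) were left out. The lowest barcode held 501 and 504 UMIs. Counts were scaled to 10000 per cell, and 2000 variable genes, 30 principal components and 20 neighbours were clustered with leidenalg 0.10.2 on igraph 0.11.9 (resolution 1, scikit-learn 1.9.0, no integration). None of the 8 genes was among the variable genes or markers. Marker lists were scored by their mean log2 ratio over the median cluster, and the top list named a cluster if its score was 2.5 or more, lay 0.5 above the next and rested on 3 or more markers. These thresholds were set after the clusters had been seen, and a cluster led by haemoglobin genes and a cycling cluster stayed unnamed.

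UMIs were summed per class and library. Levels carry exact Poisson, ratios exact conditional binomial and shares Clopper-Pearson intervals (scipy 1.17.1), checked on simulated counts. A count of 0 is given as an upper limit of 3 UMIs. Genes with 100 UMIs over both libraries were compared in classes with 100 cells in each library (6 classes). A gene past 1.5-fold was called, and its interval was not part of the call. Border-associated macrophage-like cells fell short of 100 vehicle cells and are given as values. Named beside the members are the 3 genes of highest r, and of each list the genes past the fold and the 3 with most UMIs, with a few more chosen after their values were seen. The members and lists were chosen with earlier results of these data known.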

Additional observations from a re-analysis of the deposited data

Results flagged for a closer look

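The ratios of Trem2 and Tyrobp between the libraries lay on opposite sides of 0 in the 2 main classes, with counting intervals clear of 0 in both. The log2 ratio of HDAC3i over vehicle was -0.18 for Trem2 in microglia-like and 0.061 in monocyte/macrophage-like cells, and the second turned to -0.0055 in the largest cluster alone, with an interval that held 0. For Tyrobp it was -0.039 and 0.093, and the first turned to 0.096 with cells thinned to 2000 UMIs. With 1 library per treatment the difference between the classes was not tested.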

How the results depend on the processing

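The members' ratios within and between the microglia-like and the monocyte/macrophage-like class were recomputed under 13 alternatives (stricter and no cell filter, doublets kept, other clusterings and naming, thinned cells, other totals and other weights of cells and clusters). Fcer1g kept its sign under all 13 in both classes, with log2 ratios of 0.10 to 0.22 in microglia-like and 0.095 to 0.22 in monocyte/macrophage-like cells, and so did Fcgr3, with -0.22 to -0.16 and -0.36 to -0.21. The log2 ratio of Fcer1g per activating receptor UMI, added after seeing the data, was 0.31 (0.27 to 0.38) and 0.33 (0.30 to 0.39). Weighting the clusters alike, which gives the 8 vehicle cells of the Ear2 and Napsa cluster the weight of the much larger Spp1 and Gpnmb cluster, moved the log2 ratio of activating to inhibitory receptors in monocyte/macrophage-like cells from 0.09 to -0.38. Thinning to 2000 UMIs moved the members' median there from 0.073 to -0.038 and in microglia-like cells from -0.066 to 0.036, and the cause was not tested. It also turned the sign of Fcgr1 there (0.23 to -0.091) and of Tyrobp in microglia-like cells (-0.039 to 0.096). Syk in monocyte/macrophage-like cells ranged from -0.60 (thinned) to 0.44 (clusters weighted alike). In oligodendrocyte-like cells, leaving out the cluster of lowest depth, also added after seeing the data, turned Trem2 from 0.63 to -0.34 and Fcer1g from 1.13 to -0.042, since that cluster held 72 of 144 and 89 of 158 HDAC3i UMIs. Between the 2 classes, 74 recomputed ratios moved beyond their counting interval and 134 did not. Fcgr1 and Fcgr3 (0.67 to 1.46), Fcgr4 (-1.72 to -0.68) and Fcer1g (-0.38 to -0.017) kept their side under all. The ratios of the other classes were recomputed under none, apart from oligodendrocyte-like cells. At a minimum of 20 UMIs, 2 in place of 1 list entries were lower and 4 in place of 1 higher in microglia-like cells, and 7 in place of 4 lower and 2 in place of 1 higher in monocyte/macrophage-like cells. Each treatment is 1 library, so differences between animals or preparations and the treatment cannot be told apart. Depth limits Fcgr4 and Syk most, with 223 to 412 UMIs in microglia-like cells. No paired analysis was possible because each group has 1 library.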

Other observations

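The unnamed cycling cluster, which mixed C1q and granule genes (55 and 42 cells), held 1359 and 1017 CPM of Trem2, a ratio of 1.34 (1.23 to 1.45), and 2845 and 2560 CPM of Tyrobp. Its Fcgr4 level was 16.6 and 32.8 CPM, from 22 and 28 UMIs.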
